A study of Mus musculus with 16 samples.

Results

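The contacts described here are those that 2 promoters on different chromosomes made with each other's surroundings. In 4C-seq (circular chromosome conformation capture with sequencing), DNA that lay close to a chosen locus, the viewpoint, is ligated to it and sequenced, so each library lists restriction sites that were near that viewpoint. The members are the listed sites of the 8 Cdca3 libraries on chr5:109110987-111716060, the stretch taken to hold the Pole/Pxmp2 promoter, and those of the 8 Pole libraries on chr6:122734331-125781765, the stretch taken to hold the Cdca3/Usp5 promoter (mm9). There were 425 such entries among the 327988 in all 16 libraries. Of these, 374 came from Cdca3 libraries and 51 from Pole libraries. A site listed in several libraries counts once for each. The stretches are 2.61 and 3.05 Mb long, or 1.75% and 2.09% of the part of chromosomes 5 and 6 with listed sites.

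All libraries came from mouse embryonic fibroblasts (MEFs) prepared from E13.5 embryos and proliferating at passage 4. The groups differ at the retinoblastoma gene: Rb1+/+ cells have both normal copies, and Rb1L/L cells have the L allele on both. Each genotype has 4 libraries per viewpoint. The labels give 4 numbered MEF pairs, and the same pairs at both viewpoints, which makes 8 cultures with 1 library per viewpoint each. Whether a culture is 1 embryo, and what a pair shares, is not stated. The p-values therefore measure the spread between these cultures. No expression was measured, so the cell type could not be checked against marker genes.

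A bidirectional promoter lies between 2 genes and serves both, one on each side. Pole encodes the catalytic subunit of DNA polymerase epsilon, which copies the leading strand, and Pxmp2 encodes a channel protein of the peroxisome membrane. Cdca3 encodes a protein needed for entry into mitosis, and Usp5 an enzyme that disassembles free ubiquitin chains. The Rb1 product, pRb, restrains E2F transcription factors, which drive genes of DNA replication and cell division, and the L mutation is known, as background, to disrupt the pRb pocket site for partners that carry an LXCXE motif. Condensin II, named in the series' title, is a complex that compacts chromosomes. The question here was whether these promoters contact each other's neighbourhoods and whether that depends on the Rb1 genotype.

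In the gene order of RefSeq (GRCm38.p6), the genes on the Pxmp2 side of the first promoter are Pgam5 (a mitochondrial phosphatase), Ankle2 (nuclear envelope assembly), Golga3 (a Golgi protein) and Chfr (a mitotic checkpoint ubiquitin ligase). On the Pole side they are P2rx2 (an ATP-gated channel), Lrcol1, Fbrsl1 and Galnt9 (a glycosyltransferase). Around the second promoter lie Tpi1 (a glycolytic isomerase), Spsb2, Lrrc23 and Eno2 (an enolase) on the Usp5 side, and Gnb3 (a G-protein subunit), P3h3 (a collagen prolyl hydroxylase), Gpr162 and Cd4 (a T-cell receptor partner) on the Cdca3 side. No mm9 gene coordinates were used. Which of these genes lie beside a listed site is therefore not known, nor where in its stretch a promoter lies.

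Of Pole, Pxmp2, Cdca3 and Usp5, only Cdca3 had an entry in the promoter table used. Its 250 bases before the gene start are shown because the labels name the promoter of this gene as the viewpoint of the chromosome 5 contacts; where the viewpoint's primers lie is not known here (RefSeq, GRCm38.p6, chr6:124829926-124830175, plus strand, not comparable with the mm9 positions). Capitals mark CCAAT, a promoter box bound by NF-Y, on either strand.
Cdca3: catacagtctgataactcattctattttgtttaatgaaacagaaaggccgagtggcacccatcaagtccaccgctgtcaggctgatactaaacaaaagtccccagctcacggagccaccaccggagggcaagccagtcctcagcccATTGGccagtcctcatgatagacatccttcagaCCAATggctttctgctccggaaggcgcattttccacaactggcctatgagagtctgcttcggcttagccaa
CCAAT occurred once on each strand, and 33.8% of the 32851 promoter windows of the same length held it. The HindIII site AAGCTT, at which the chromatin was first cut, did not occur in these letters (6.22% of windows held it), and CATG, the NlaIII site of the second cut, occurred once (53.9%). TTNNCGC, the core letters of an E2F site, did not occur on either strand (17.0%). These motifs do not overlap in this window. A match is only a match of letters.

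Library yield, as listed sites, ran from 15802 to 39650 in the Cdca3 libraries and from 6485 to 17522 in the Pole libraries. Sites off the viewpoint's own chromosome, called trans sites here, ran from 10537 to 30028 and from 2616 to 8899. The files hold no reads, so sequencing depth is unknown, and an empty stretch means no site below the authors' threshold, not absence of contact. In bulk cells, a contact in fewer cells and a weaker contact in all cells cannot be told apart.

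From the Cdca3 promoter, the Pole neighbourhood on chromosome 5 was contacted in 7 of 8 libraries. Rb1+/+ libraries 1 to 4 listed 40, 56, 53 and 51 sites in the stretch, and Rb1L/L libraries 1 to 4 listed 0, 55, 57 and 62. All 7 libraries with sites lay between 40 and 62, in both genotypes, and Rb1L/L replicate 1 stood apart from them. That library also had the lowest yield of the 8, at 15802 sites. The next lowest, Rb1+/+ replicate 1 with 19972, listed 40 sites in the stretch. The part of yield in this was not tested. Of all 585 stretches of this length along chromosome 5, stepped by 250 kb, 33.0% held sites in at least 7 of 8 libraries.

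**Figure D1:**
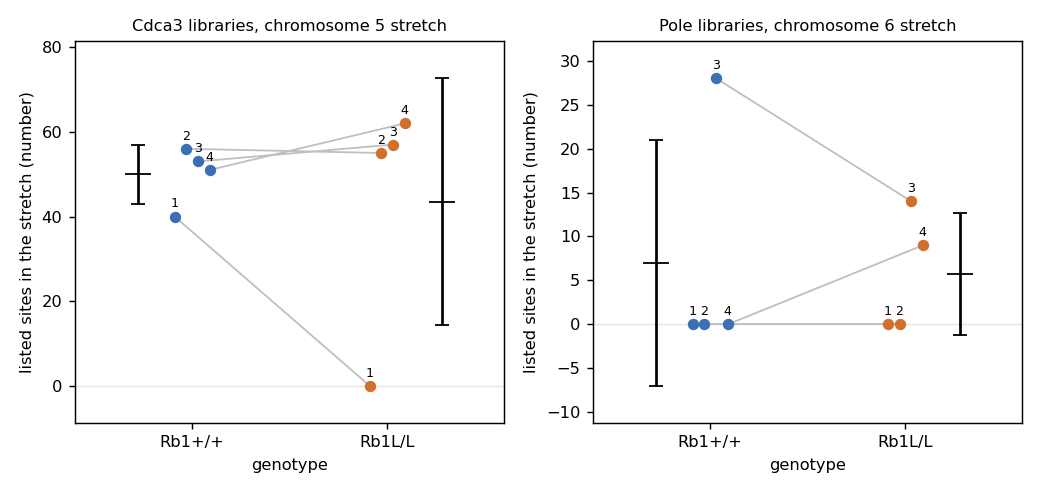
Number of listed sites in each stretch by library: Cdca3 libraries on chromosome 5 (left) and Pole libraries on chromosome 6 (right). Points are libraries with their replicate number, grey lines join numbered pairs, and black bars show mean ± SD (n = 4). In the Cdca3 libraries 7 of 8 sit between 40 and 62, and in the Pole libraries 3 of 8 lie above 0.

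Within the stretch the contacts were not spread evenly. The first site listed by any Cdca3 library lay at 110520606, so the centromeric 1.41 Mb (54.1% of the stretch) held none, and all 374 entries fell in the telomeric 1.195 Mb. No Pole library listed a site there either, by the choice of the stretch. A run this long or longer without a site in any of the 16 libraries occurred 19 times on chromosome 5, and the longest was 4.83 Mb. Because the Pole libraries were empty here by that choice, this count is a description and does not rank the empty part.

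In 250-kb windows, 6 of 11 held no site and the other 5 held sites in 5 to 7 libraries. The fullest was 111.25 to 111.5 Mb, with 13.1 ± 6.69 sites per library (SD, n = 8). Rb1+/+ libraries 1 to 4 listed 13, 14, 10 and 13 sites in it, and Rb1L/L libraries 1 to 4 listed 0, 24, 15 and 16. The emptiest of the filled windows was 110.5 to 110.75 Mb, at the border of the empty part, with 6.25 ± 7.15 sites. In it, Rb1+/+ libraries 1 to 4 listed 0, 9, 20 and 8 sites and Rb1L/L libraries listed 0, 0, 2 and 11. How far the contacts reached towards the centromere therefore varied between libraries of 1 genotype.

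**Figure D2:**
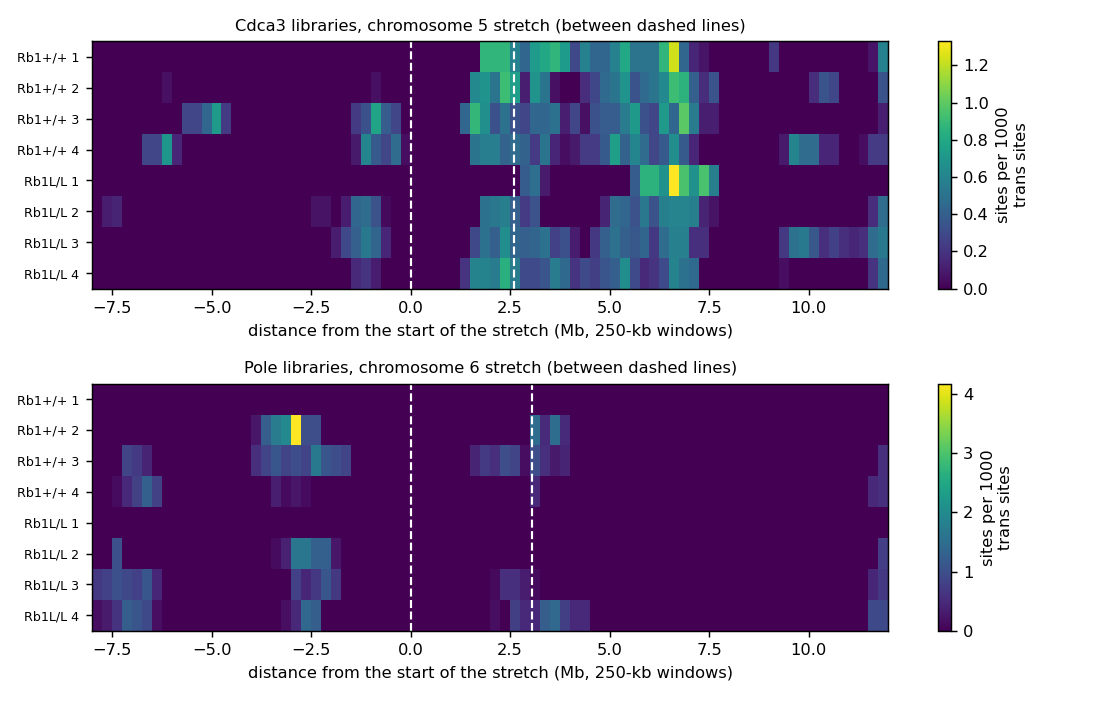
Listed sites per 1000 trans sites in 250-kb windows around each stretch, 1 row per library, against the distance from the start of the stretch in Mb. Dashed lines mark the stretch, and each panel has its own colour scale. The Cdca3 rows are empty in the centromeric part of the stretch, hold sites in its telomeric part in 7 of 8 libraries and past it in all 8, and hold sites in some libraries on the centromeric side of the stretch. In the lower panel, the Pole signal inside its stretch is limited to 3 libraries.

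The 374 entries stood for 214 distinct restriction sites, taking intervals within 10 bp in different libraries as the same site. Of these, 107 sites were listed in 1 library and 107 in at least 2. The site listed most often, at 111356984 to 111356989, appeared in 2 Rb1+/+ and 3 Rb1L/L libraries. Of the sites listed in 4 libraries, the first along the chromosome were at 110986567, 110996778, 111260648 and 111284545. Among all distinct sites of the Cdca3 libraries on chromosome 5, 54.4% were listed in 1 library and 2.30% in at least 5. In the stretch these shares were 50% and 0.467% of its 214 sites. Both genotypes listed 73 of the sites, which is 48.3% of the 151 Rb1+/+ sites and 53.7% of the 136 Rb1L/L sites. Over all of chromosome 5, Cdca3 libraries of both genotypes shared 52.4% and 45.0% of their sites. The Rb1+/+ share was thus lower in the stretch than on the chromosome, and the Rb1L/L share higher. Only 3 Rb1L/L libraries listed sites in the stretch, so the shares rest on unlike sets of libraries. How recurrence compares between stretch and chromosome cannot be read from them. The authors' deposited p-values or q-values in the stretch ran from 8.93e-12 to 0.0418, and 338 of the 374 entries had a value under 0.01. The share under 0.01 over the whole chromosome is not given here. Entries of a library often had the same value: 40 entries of Rb1+/+ replicate 1 held 14 different values, and 57 of Rb1L/L replicate 3 held 29. The entries are therefore not separate pieces of evidence.

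The sites in the stretch lay at the centromeric end of longer significant regions. In the 7 libraries with sites, all of them lay in a significant region, as called by the authors, that began between 109886323 and 110267294 and ended between 117175636 and 119225425. These regions were 7.20 to 8.96 Mb long, and held 190 to 244 sites. In Rb1L/L replicate 1 the region was shorter, from 110927908 to 113421094, held 10 sites and reached 0.788 Mb into the stretch without a listed site there. Regions began 0.630 to 0.937 Mb before their first listed site, so their covered length includes a margin without sites. A second region ended inside the stretch in Rb1+/+ replicates 3 and 4 and Rb1L/L replicates 2 and 3, also without a site there.

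**Figure D3:**
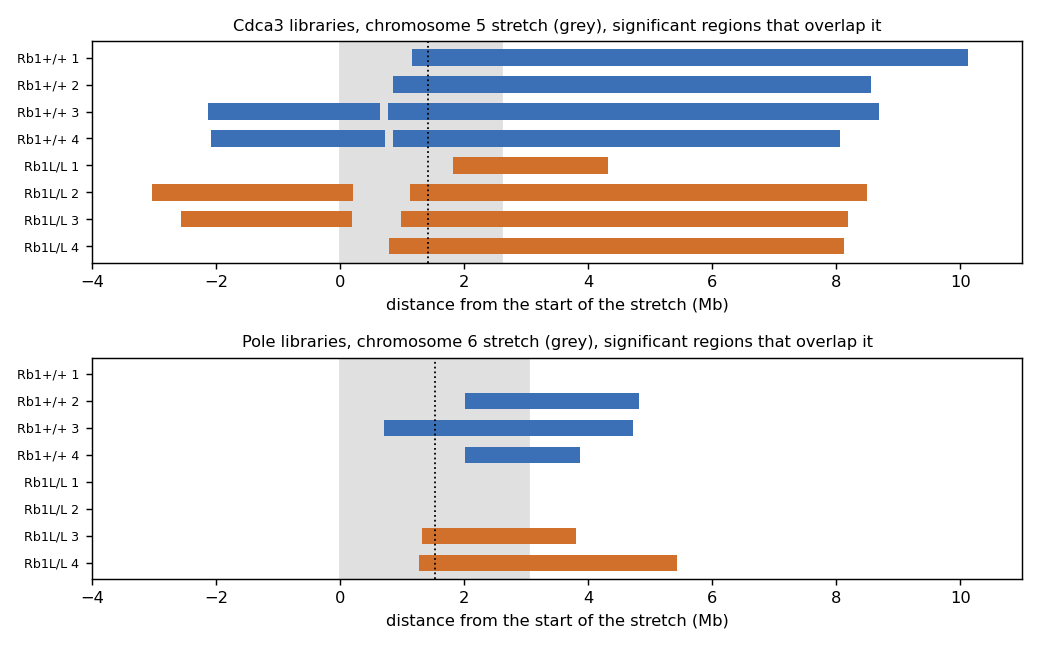
Significant regions that overlap each stretch (grey), 1 row per library, against the distance from the start of the stretch in Mb; blue is Rb1+/+ and orange is Rb1L/L. The dotted line marks the first site listed by any of the 8 libraries. On chromosome 5 all 8 libraries have a region over the telomeric part, and on chromosome 6 5 of 8 do.

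Beside its neighbours of the same length, the chromosome 5 stretch had an intermediate mean. The centromeric neighbour held 0.969 ± 0.923 sites per 1000 trans sites, the stretch 2.29 ± 1.05 and the telomeric neighbour 3.02 ± 1.57 (SD, n = 8). The telomeric neighbour held sites in all 8 libraries, 10 to 88 each, and was 99.0% ± 2.83 covered by significant regions. The differences between neighbours were not tested, because the 3 stretches adjoin and share regions.

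Against chromosome 5 as a whole, the stretch ranked high but not at the top. Its mean of 2.29 sites per 1000 trans sites compares with a median of 0.211 over the 585 stretches, and 24.1% of them had a higher mean. The highest was chr5:121731427-124336500, with 7.09. In the 7 libraries with sites, between 73.2% and 81.4% of stretches held fewer sites. Between 50.6% and 66.7% of stretches were empty in a library. The percentile of the stretch in a library is the percent of stretches with fewer sites plus 0.5 times the percent with equally many. Against stretches of all trans chromosomes its mean was 74.5, against 71.4 on chromosome 5 alone. Stretches overlap and share regions, so these ranks are a description. The number of HindIII sites in each stretch was not counted.

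**Figure D4:**
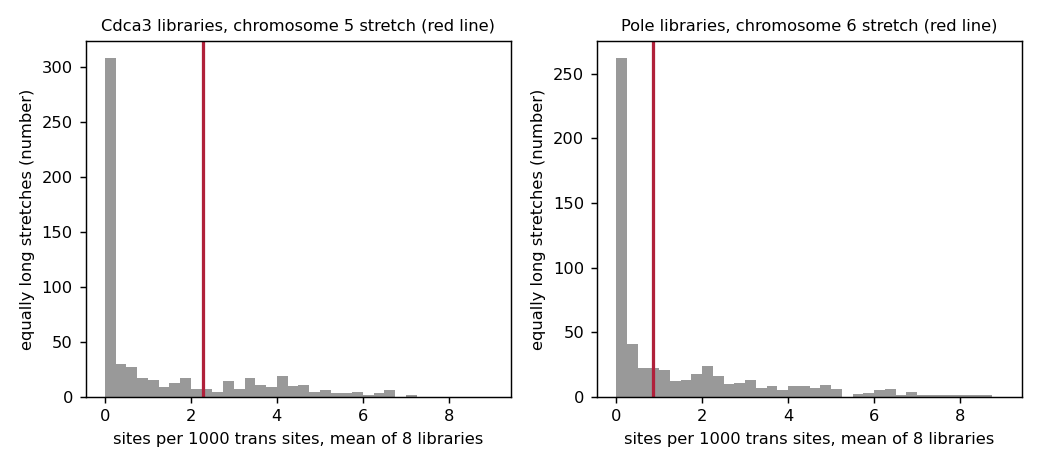
Distribution of the mean number of sites per 1000 trans sites over all equally long stretches, 585 on chromosome 5 for Cdca3 libraries (left) and 571 on chromosome 6 for Pole libraries (right). The red line is the stretch with the other promoter, at 2.29 and 0.862, with 24.1% and 41.3% of stretches above it.

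The genotypes overlapped in the chromosome 5 stretch. Rb1+/+ libraries listed 50 ± 6.98 sites and Rb1L/L libraries 43.5 ± 29.1 (SD, n = 4 each), and Rb1L/L was higher in 2 of 4 pairs. Per 1000 trans sites the values of Rb1+/+ libraries 1 to 4 were 2.90, 3.19, 2.92 and 2.38, and those of Rb1L/L libraries 0, 1.83, 2.05 and 3.08. The means were 2.85 ± 0.340 and 1.74 ± 1.28, a difference of -1.11 with a 95% interval from -3.19 to 0.707. All reassignments of the genotype labels, in an exact permutation test (two-sided), gave p = 0.114 (adjusted p = 0.457 over the 8 comparisons made, lower in 3 of 4 pairs). The smallest p this test can give is 0.0286. Without Rb1L/L replicate 1, which listed no site, the difference was -0.525 (exact permutation p = 0.229). Without Rb1L/L replicate 4, the highest of its genotype, it was -1.55 and reached the smallest p that 3 against 4 libraries allow (exact permutation p = 0.0286).

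The rank and the covered length gave the same picture of overlapping groups. The mean percentile was 77.9 ± 1.59 for Rb1+/+ against 64.9 ± 22.9 for Rb1L/L (SD, n = 4 each). The difference of -13.1 (exact permutation p = 0.286, 95% interval -49.1 to 5.13) fell to -1.77 without Rb1L/L replicate 1 and was -18.6 without Rb1L/L replicate 4 (exact permutation p = 0.0286). Significant regions covered 55.6%, 67.4%, 94.8% and 95.5% of the stretch in Rb1+/+ libraries 1 to 4, and 30.3%, 64.7%, 69.9% and 69.99% in Rb1L/L libraries 1 to 4. The mean was lower in Rb1L/L by 19.6 percentage points, and lower in 4 of 4 pairs, but the groups overlapped (58.7% ± 19.1 against 78.3% ± 20.01, SD, n = 4 each). The exact permutation test gave p = 0.257, with a 95% interval from -65.2 to 14.4. Without Rb1L/L replicate 1 the difference was -10.2.

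In a test over all trans windows with limma, which fits a linear model per window and pools their variance, no window of the stretch passed the threshold. Of 3060 windows of 250 kb with at least 8 sites over the 8 Cdca3 libraries, 0 passed, or 0.00%, after Benjamini-Hochberg adjustment, and 166 had an unadjusted p under 0.05 (5.42%). In the stretch, 0 of the 5 tested windows passed either threshold, and all 5 had a negative log2 fold change, with a median of -1.01 against -0.01 over all tested windows. These 5 windows share the library that listed no site in the stretch. Without it none was called either, but the fold changes of these windows without it are not given here. The window closest to the threshold was 111.0 to 111.25 Mb, with a log2 fold change of -1.32 ± 0.71 (SE, limma adjusted p = 0.812). Its libraries listed 13, 12, 10 and 12 sites in Rb1+/+ and 0, 16, 12 and 10 in Rb1L/L.

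In the opposite direction, from the Pole promoter, the Cdca3 neighbourhood on chromosome 6 was contacted in 3 of 8 libraries. Rb1+/+ libraries 1 to 4 listed 0, 0, 28 and 0 sites, and Rb1L/L libraries 1 to 4 listed 0, 0, 14 and 9. The 3 libraries with sites were both members of pair 3 and the Rb1L/L member of pair 4. Their yields were 15828, 16989 and 14103 sites. Of the 5 libraries without sites in the stretch, 3 had the lowest yields of the viewpoint, 6485 to 9569, and Rb1+/+ replicate 4 and Rb1L/L replicate 2 listed 17522 and 15664. The part of yield in this was not tested. Of the 571 stretches of this length along chromosome 6, 47.3% held sites in at least 3 of 8 libraries, so a stretch contacted this often was common.

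As on chromosome 5, the listed sites lay in the telomeric part. The first was at 124270940, so the centromeric 1.54 Mb (50.4% of the stretch) held none, and 6 of 12 windows were empty. No Cdca3 library listed a site in these windows either, by the choice of the stretch. Runs of this length or longer without a site in any of the 16 libraries occurred 19 times on chromosome 6, which is likewise only a description. The fullest window was 125.25 to 125.5 Mb, where Rb1+/+ replicate 3 listed 6 sites, Rb1L/L replicate 3 listed 4 and Rb1L/L replicate 4 listed 5. The emptiest of the filled windows was 124.25 to 124.5 Mb, with 3 sites, all in Rb1+/+ replicate 3.

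The 51 entries stood for 45 distinct sites, of which 39 were listed in 1 library and 6 in 2. All 6 shared sites were listed in both genotypes, 21.4% of the 28 Rb1+/+ sites and 26.1% of the 23 Rb1L/L sites. The first 5 of them along the chromosome were at 124955405, 125027143, 125118977, 125362925 and 125428815. Over all of chromosome 6 the Pole libraries of both genotypes shared 23.9% and 20.4%. The shares in the stretch rest on 1 Rb1+/+ and 2 Rb1L/L libraries, and those of the chromosome on 4 of each. How recurrence compares between them therefore cannot be read from these values. Over the whole chromosome, 81.9% of sites were listed in 1 library, against 54.4% for Cdca3 libraries on chromosome 5, beside the lower yields of Pole libraries. Of the 51 entries, 31 had a deposited value under 0.01, and 27 of these came from Rb1+/+ replicate 3. The share over the whole chromosome is not given here. The 28 entries of that library held 9 different values, so they too are not separate pieces of evidence.

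Significant regions overlapped the chromosome 6 stretch in 5 Pole libraries. In Rb1+/+ replicate 3 the region ran from 123447622 to 127456338 and held 42 sites, 28 of them in the stretch. In Rb1L/L replicate 3 it ran from 124054252 to 126541407, with 14 of its 15 sites in the stretch, and in Rb1L/L replicate 4 from 124002842 to 128158542, with 9 of 40. Regions in Rb1+/+ replicates 2 and 4 reached 1.04 Mb into the stretch, but their sites lay beyond its telomeric end, the nearest at 125806840 and 125802085. In these 2 libraries the nearest listed contacts were thus within 0.0251 Mb of the stretch. Rb1+/+ replicate 1, Rb1L/L replicate 1 and Rb1L/L replicate 2 had no region over it.

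The chromosome 6 stretch had a lower mean than either neighbour. Its mean was 0.862 ± 1.41 sites per 1000 trans sites, against 3.29 ± 2.92 in the centromeric neighbour, with sites in 6 of 8 libraries, and 1.41 ± 1.95 in the telomeric one, with sites in 5 (SD, n = 8, not tested). Over the 571 stretches the median was 0.422, and 41.3% had a higher mean than the stretch. In the 3 libraries with sites, 82.8%, 68.1% and 67.4% of stretches held fewer. The highest stretch was chr6:28269408-31316842, with 8.69. The mean percentile over 8 libraries was 50.1 ± 20.1 (SD), where a library without sites in the stretch is ranked at the midpoint of all empty stretches. The stretch therefore ranked near the middle of its chromosome.

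The genotypes overlapped here too. Per 1000 trans sites the only Rb1+/+ library with sites had 3.93, and the Rb1L/L libraries with sites had 1.57 and 1.39. The Rb1+/+ mean was 0.983 ± 1.97 and the Rb1L/L mean 0.741 ± 0.859 (SD, n = 4 each), a difference of -0.242 with a 95% interval from -3.93 to 1.57 (exact permutation p = 1, lower in 1 and higher in 1 of 4 pairs). The sign turned without Rb1+/+ replicate 3, to 0.741, and without Rb1L/L replicate 1 or 2, to 0.00501. The percentile differed by 5.60 (exact permutation p = 0.771) and the covered share by -7.43 percentage points (36.2% ± 31.4 against 28.8% ± 33.2, SD, n = 4 each, exact permutation p = 0.8286). Without Rb1+/+ replicate 3 the difference in covered share was 6.03 points, and without Rb1L/L replicate 1 or 2 it was 2.16. Without Rb1+/+ replicate 4 that in percentile was -0.817. Differences in percentile here include the ranks of libraries without sites, which follow their share of empty stretches. Over 2046 trans windows of the Pole libraries limma called 0 (0.00%), and 60 (2.93%) passed 0.05 before adjustment. Only 2 windows of the stretch had the 8 sites needed for the test. Their log2 fold changes were -0.19 ± 1.21 and 0.59 ± 1.22 (SE, limma adjusted p = 0.998 for both).

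Set side by side within cultures, the contact was listed in both directions in 3 of 8 cultures, in the Cdca3 direction only in 4 and in neither in 1. In no culture was it listed in the Pole direction only. Cdca3 libraries had sites in 7 of 8 cultures, so at most 1 culture could have been listed in the Pole direction only. The absence of such a culture therefore does not show that the directions go together, and their overlap was not tested. The cultures with both were Rb1+/+ replicate 3 (53 sites from Cdca3 and 28 from Pole), Rb1L/L replicate 3 (57 and 14) and Rb1L/L replicate 4 (62 and 9). Rb1L/L replicate 1 had neither, with the lowest yield at both viewpoints.

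To compare stretches of unequal length, the density of sites in a stretch was divided by that of its chromosome in the same library. A value of 1 means the chromosome's own density. The Cdca3 libraries had a relative density of 1.87 ± 0.844 and the Pole libraries 0.572 ± 0.938 (SD, n = 8 each). The Cdca3 value was higher in 6 of 8 cultures and lower in 1, Rb1+/+ replicate 3, where it was 2.24 against 2.62. The mean difference of 1.29 had p = 0.0312 in an exact two-sided sign permutation test within the 8 cultures, and did not pass adjustment over the 8 comparisons (adjusted p = 0.25). It was 1.02 to 1.66 when single pairs were left out, and passed 0.05 in none of these exact tests (lowest exact permutation p = 0.0625). Viewpoint, target chromosome and yield differ together in this comparison and cannot be told apart. The genotype difference in relative density was -0.702 at Cdca3 and -0.166 at Pole. Its difference between viewpoints was 0.536 (exact permutation p = 0.486), and 0.00737 without pair 1.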

How the data were processed

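The data are 16 4C-seq libraries of MEFs. Per the labels' protocols, crosslinked chromatin was cut with HindIII and ligated, cut again with NlaIII, and amplified from each viewpoint by inverse PCR. The authors deposited, per library, a list of restriction sites, with a p-value (or a q-value, which is not stated) below 0.05 per site, and a list of significant regions as coordinates. Positions are on mm9 (per the submitters' processing notes). For the aligner and the caller, names and settings were not given in the sources used here.

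Both stretches were chosen earlier as runs without sites in a viewpoint's own libraries, around the approximate position of its promoter. The members and tests were chosen with earlier results of these data known. A site was counted when it lay wholly inside a stretch. Equally long stretches ran from the first to the last site listed on the chromosome. Single values were compared by exact permutation tests (Python 3.11.15, pandas 2.3.3, numpy 2.4.6), with intervals from inverting the test, and 8 such p-values were adjusted by Benjamini-Hochberg. For windows, log2 of the number of sites plus 0.5, per 1000 trans sites, went into limma (version 3.58.1, R 4.3.3, trended variance prior), which was checked on simulated data. Named were the stretches, their regions, the fullest and emptiest filled windows, the window closest to the threshold and at most 5 sites per stretch listed in most libraries. Filled windows were asked for after 6 windows per stretch were found empty. The pair was not a block in the main tests, because what a pair shares is not stated. Same-numbered libraries correlated between -0.0421 and 0.150 in their deviations over trans windows. They were each other's best match in pair 1 at both viewpoints and in pair 2 at Cdca3, and not in the others. Alternatives were another step, other reference stretches, a value under 0.01, a shorter stretch, other scalings, windows and filters, and the pair as a block. Each library was also left out, or each pair where viewpoints were compared.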

Additional observations from a re-analysis of the deposited data

Results flagged for a closer look

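In 2 groups of 4 libraries a single library lay far from the other 3, by Dixon's criterion, which chance meets in about 1 of 20 groups, and the measures below are not independent. Among the Cdca3 Rb1L/L libraries, replicate 1 was the low one, with 0 sites in the chromosome 5 stretch, a percentile of 31.0 and 30.3% of the stretch covered by significant regions. In sites per 1000 trans sites and in relative density, replicate 1 did not meet the criterion. Among the Pole Rb1+/+ libraries, replicate 3 was the high one in the chromosome 6 stretch, with 28 sites, 3.93 sites per 1000 trans sites and a relative density of 2.62, while the other 3 listed 0. With those 3 tied at 0, any listed site would meet the criterion, so the rate of 1 in 20 does not hold there. In percentile and covered share this library did not meet it. The yields of these libraries were 15802 and 15828 sites, the former the lowest of its viewpoint and the latter within its range.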

How the results depend on the processing

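Of 45 settings other than leaving out a library or a pair, 44 kept the direction and the side of the threshold of their result. Those 44 include exact tests with the pair as a block, which could not have passed the threshold. Their difference equals the unblocked one by construction, so they say nothing about how stable a result is. The exception was the genotype difference in relative density between viewpoints, -0.124 over sites with a deposited value under 0.01 (exact permutation p = 0.886). The cause was not tested. With the pair as a replicate block, the exact tests could change neither a difference nor a call. At chromosome 5 the differences are by construction again -1.11 sites per 1000, -13.1 in percentile and -19.6 points of cover. The exact sign permutation gave p = 0.25 and 0.375 for the first 2, and the smallest p that 4 pairs allow for cover. At chromosome 6 the differences are again -0.242, 5.60 and -7.43 (exact sign permutation p = 1, 0.875 and 0.75). With this block, limma called 0 windows at either viewpoint. When single libraries were left out, the chromosome 5 differences ran from -1.55 to -0.525 sites per 1000, from -18.6 to -1.77 in percentile and from -27.2 to -10.2 points of cover. Those of chromosome 6 ran from -0.570 to 0.741, from -0.817 to 17.5 and from -19.5 to 6.03. When whole pairs were left out, the difference between viewpoints ran from 1.02 to 1.66 in relative density, and its genotype difference from 0.00737 to 1.09. With any single library left out, limma called 0 windows. Depth is unknown, and a stretch listed as empty in a library of low yield may hold contacts below the authors' threshold.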
